A study of Mus musculus with 11 samples.

Results

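The fibroblast chemokine genes described here are 10 genes of the CC and CXC chemokine families: Ccl2, Ccl5, Ccl7, Ccl8, Ccl20, Cxcl1, Cxcl2, Cxcl5, Cxcl10 and Cxcl12. They were taken by gene name from the deposited count table, in which each had 1 line among 53924 named lines, and all 10 were among the 16990 genes that passed the filter on low counts. The lowest count of a member in any library was 3, for Ccl20, and the next lowest was 6, for Ccl8. The other 8 members had at least 10 counts in all 11 libraries.

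The libraries were RNA-seq of mouse embryonic fibroblasts (MEFs), connective tissue cells grown here out of embryos of embryonic day 13.5, which the labels place at passage 2. By genotype there were 3 libraries of wild-type cells (WT), 3 of Trex1-/- cells, 3 of Trex1D18N cells and 2 of Trex1p212fs cells. D18N names a substitution in the active site of the exonuclease TREX1, and p212fs is written in the usual notation for a frameshift. Per the labels' growth protocol, which names both primary and spontaneously immortalized MEFs without saying which library is which, all cells were kept in the same serum-containing medium. No stimulus was named. The sources used here give neither the strain nor the number of embryos, nor whether replicates were separate cultures. The p-values therefore measure only the spread between these libraries. Trex1-/- and Trex1D18N each held libraries of female and of male expression pattern (below), so their libraries did not all come from 1 embryo. Apart from that, the spread may be technical.

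Chemokines are small secreted proteins that bind G protein-coupled receptors on leukocytes and draw these cells towards their source. Fibroblasts are a main tissue source of several of them, and the inflammatory members are switched on through NF-kB, interferon regulatory factors or both. TREX1 degrades DNA in the cytosol. DNA left there can activate the sensor cGAS, whose partner STING turns on type I interferon and NF-kB target genes.

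Library totals ran from 16073955 to 21765536 counts, and levels are given as CPM, the count scaled to the library size. No library, WT or mutant, had a count for Trex1 itself (0 of 11), which therefore gives no check of the genotype labels. All 12 fibroblast markers were detected, with a summed level of 53746 to 57147 CPM in WT, 52391 to 62723 in Trex1-/-, 70513 to 83707 in Trex1D18N and 25228 to 28785 in Trex1p212fs. Trex1-/- replicate 2 stood apart from its 2 sister libraries in the members, and the counts of calls are given with and without it. It was singled out by the members' own values. Counts of members without it are therefore no independent support, and the shares of all genes beside them are not like for like. Xist was at 425 to 1045 CPM in the 3 WT libraries, Trex1-/- replicate 2 and Trex1D18N replicate 1, and at most at 0.179 CPM in the other 6. Sex pattern and genotype therefore cannot be told apart between WT and Trex1p212fs. Macrophage markers also differed with genotype: the sum of 20 genes was 875 to 1102 CPM in WT, 244 to 383 in Trex1-/-, 69.7 to 140.1 in Trex1D18N and 506 to 660 in Trex1p212fs. None of the 20 was at 0 in every library of a genotype. Since these are bulk samples, fewer cells of a type and less RNA per cell cannot be told apart.

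The monocyte attractants Ccl2 and Ccl7, both ligands of the receptor CCR2, are neighbouring genes on chromosome 11. Ccl2 lies at chr11:82035571-82037453 and Ccl7 at chr11:82045712-82047525, both on the plus strand (GENCODE M21, GRCm38). Ccl2 measured 279, 214 and 191 CPM in WT replicates 1 to 3, and 73.0, 1527 and 207 CPM in Trex1-/-. In Trex1D18N it measured 368, 243 and 233 CPM, and in Trex1p212fs 784 and 724 CPM. Both Trex1p212fs libraries were above every WT library, while the Trex1-/- group held both the lowest and the highest level of the series. Ccl7 followed the same order, with 232, 127 and 133 CPM in WT, 55.4, 783 and 139.9 CPM in Trex1-/-, 231, 211 and 150.0 CPM in Trex1D18N, and 529 and 560.2 CPM in Trex1p212fs. Per kilobase of exon these 2 genes were the most abundant members in WT, with mean levels of 200.5 CPM per kb for Ccl2 and 205 for Ccl7. Their difference was smaller than the spread between the WT libraries (SD 39.9 and 74.1 CPM per kb, n = 3).

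Ccl8, at chr11:82115185-82116799 on the plus strand, belongs to the same gene cluster, and in mice its product acts on the receptor CCR8. It was at 3.34, 1.59 and 0.869 CPM in WT and at 0.268, 10.7 and 1.72 CPM in Trex1-/-. Trex1D18N libraries had 4.78, 3.13 and 4.09 CPM, and Trex1p212fs libraries 17.1 and 24.1 CPM. The 2 Trex1p212fs values were above all other libraries, Trex1-/- replicate 2 included.

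Ccl5 (RANTES), whose product attracts T cells and monocytes, lies on the minus strand at chr11:83525778-83530518. It was low in WT, at 4.09, 1.84 and 1.41 CPM. In Trex1-/- it was at 5.27, 390 and 23.2 CPM, in Trex1D18N at 47.3, 23.8 and 17.7 CPM, and in Trex1p212fs at 252 and 312 CPM. All 8 mutant libraries were above all 3 WT libraries, which held for no other member. Per kilobase of exon Ccl5 ranked 9 of 10 among the members in WT, 6 in Trex1D18N, 5 in Trex1-/- and 4 in Trex1p212fs. Its mean was 2.55 CPM per kb in WT and 294 CPM per kb in Trex1p212fs.

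Ccl20, the ligand of CCR6, is on chromosome 1 (83116766-83119167, plus strand). Its levels were 8.59, 3.24 and 3.53 CPM in WT, 1.52, 12.3 and 2.38 CPM in Trex1-/-, 0.171, 3.64 and 0.908 CPM in Trex1D18N, and 13.3 and 6.03 CPM in Trex1p212fs. WT and every mutant group overlapped.

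**Figure D1:**
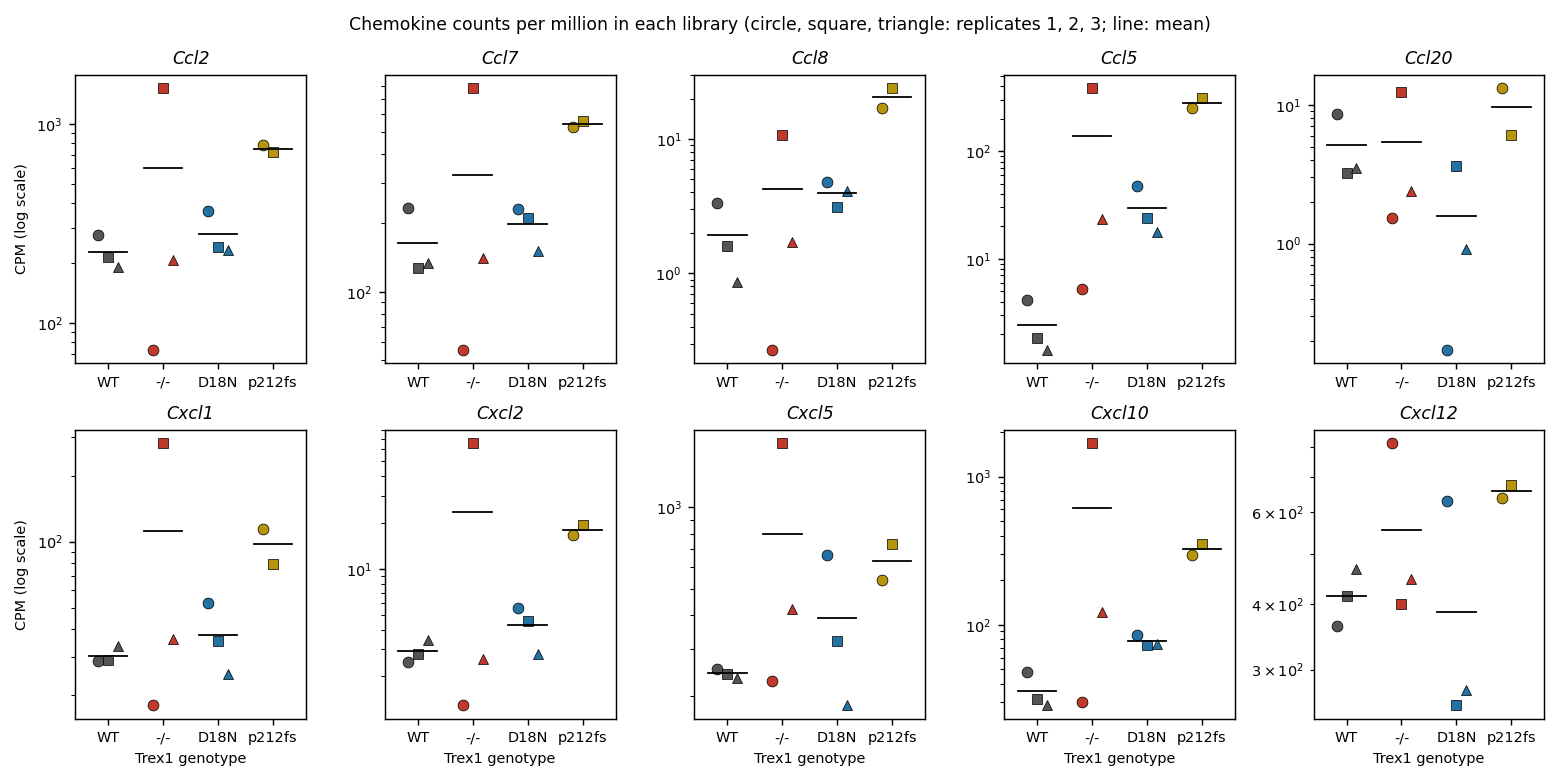
Level of each of the 10 chemokine genes in each of the 11 libraries, in CPM on a log axis, by Trex1 genotype; circles, squares and triangles are replicates 1, 2 and 3, and lines are group means. Trex1-/- replicate 2 lies far above its sister libraries in 9 of the 10 panels, and the 2 Trex1p212fs libraries lie above WT in 9 panels, Ccl20 being the exception.

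Cxcl1, Cxcl2 and Cxcl5 encode ligands of CXCR2, the receptor that brings neutrophils into tissue, and sit in 1 cluster on chromosome 5. Cxcl5 is at chr5:90759360-90761624, Cxcl1 at chr5:90891241-90893115 and Cxcl2 at chr5:90903871-90905938, all on the plus strand. Cxcl1 was at 28.5, 28.9 and 33.5 CPM in WT, 18, 282 and 36.0 CPM in Trex1-/-, 52.4, 35.5 and 24.9 CPM in Trex1D18N, and 115 and 79.4 CPM in Trex1p212fs. The WT values lay close together, and both Trex1p212fs values were above them. Cxcl2 was less abundant: 2.48, 2.81 and 3.48 CPM in WT, 1.30, 66.1 and 2.61 CPM in Trex1-/-, 5.57, 4.55 and 2.78 CPM in Trex1D18N, and 16.6 and 19.4 CPM in Trex1p212fs. Of the 50-base stretches of Cxcl2 transcripts, 5.84% also occur in Cxcl3, so some of its reads could have been assigned either way. Cxcl5 had 253, 242 and 234 CPM in WT, 229, 1733 and 422 CPM in Trex1-/-, 665, 321 and 185 CPM in Trex1D18N, and 539 and 732 CPM in Trex1p212fs. Trex1D18N replicate 1 reached the Trex1p212fs range for Cxcl5, and replicate 3 was below WT.

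Cxcl10 encodes an interferon-inducible ligand of CXCR3, the receptor of activated T cells and NK cells (chr5:92346638-92348889, minus strand). It had 47.6, 31.4 and 28.5 CPM in WT, 29.9, 1690.5 and 121 CPM in Trex1-/-, 85.4, 72.6 and 73.7 CPM in Trex1D18N, and 295 and 352 CPM in Trex1p212fs. All Trex1D18N and Trex1p212fs libraries were above WT, while Trex1-/- replicate 1 lay within the WT range. Exons of Art3 on the other strand share 133 of the 2252 exonic bases of Cxcl10. Art3 had 0.231 to 3.21 CPM.

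Cxcl12 encodes the ligand of CXCR4 and is made without a stimulus by stromal cells, where it holds blood stem cells and lymphocytes in place (chr6:117168535-117181367, plus strand). Its levels were 364, 415 and 468 CPM in WT, 815, 400 and 448 CPM in Trex1-/-, 630.1, 256 and 275 CPM in Trex1D18N, and 640.1 and 676 CPM in Trex1p212fs. It was the one member in which Trex1-/- replicate 1, and not replicate 2, was the highest library.

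The promoters of Cxcl1, Cxcl2 and Cxcl10 are shown because, among the members with a promoter available, they hold matches to the motifs searched. With all libraries edgeR called none of these genes in any comparison. It called Ccl5, for which no promoter was available, and Ccl8, whose promoter holds no match. Each window runs from 250 bases before to 50 bases after the annotated start (RefSeq, GRCm38.p6), 5' to 3' on the gene's strand. Capitals mark matches to GGGA and TTCC with 2 free bases between them, a common form of NF-kB sites, or to GAAA and GAAA with 2 free bases between them, a form of the interferon response element, searched on both strands. The Cxcl1 window is chr5:90890995-90891294, plus strand, the Cxcl2 window is chr5:90903649-90903948, plus strand, and the Cxcl10 window is chr5:92348840-92349139, minus strand.
Cxcl1: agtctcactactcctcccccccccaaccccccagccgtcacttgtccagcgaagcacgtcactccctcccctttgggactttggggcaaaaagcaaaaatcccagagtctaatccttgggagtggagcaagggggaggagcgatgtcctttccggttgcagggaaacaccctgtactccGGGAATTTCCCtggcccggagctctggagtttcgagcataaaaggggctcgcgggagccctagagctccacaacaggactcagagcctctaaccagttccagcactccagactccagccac
Cxcl2: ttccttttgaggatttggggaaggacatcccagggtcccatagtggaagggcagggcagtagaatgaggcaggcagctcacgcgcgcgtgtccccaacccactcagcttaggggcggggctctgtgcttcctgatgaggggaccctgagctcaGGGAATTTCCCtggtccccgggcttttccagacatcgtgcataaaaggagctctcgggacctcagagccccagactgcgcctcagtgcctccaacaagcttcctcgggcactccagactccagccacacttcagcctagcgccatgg
Cxcl10: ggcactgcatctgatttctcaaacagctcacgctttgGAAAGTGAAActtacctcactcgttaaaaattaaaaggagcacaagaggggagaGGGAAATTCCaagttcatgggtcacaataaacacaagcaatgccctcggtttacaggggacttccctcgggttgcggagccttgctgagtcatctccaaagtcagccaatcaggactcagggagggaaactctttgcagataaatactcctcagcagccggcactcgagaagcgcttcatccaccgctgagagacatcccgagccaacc

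In Cxcl1 and Cxcl2 the same 11 letters, GGGAATTTCCC, hold overlapping matches to the NF-kB form on both strands, beginning 71 bases before the start in Cxcl1 and 97 bases in Cxcl2. Cxcl10 holds GGGAAATTCC 159 bases before the start and GAAAGTGAAA 213 bases before it. Across 32851 promoter windows of the same length, 1.47% hold the NF-kB form and 3.44% the interferon response form. Windows of 6 members were in the table, and those of Ccl8, Ccl20 and Cxcl12 hold neither string of letters. A match describes the sequence and does not show that a factor binds there.

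Between libraries, the members moved mostly together. Trex1-/- replicate 2 was the highest of the 11 libraries for 7 members, the exceptions being Ccl8, Ccl20 and Cxcl12, and its summed level of the 10 genes was 6894 CPM. The other Trex1-/- libraries summed to 1228 and 1404 CPM, against 1067 to 1223 CPM in WT, 966 to 2089 CPM in Trex1D18N and 3201 and 3484 CPM in Trex1p212fs. Relative to the mean of its 2 sister libraries, Trex1-/- replicate 2 was 33.9 times as high for Cxcl2, 27.4 times for Ccl5 and 22.4 times for Cxcl10. The ratio was 5.33 to 10.9 for the 6 other members that were higher in it, and 0.633 for Cxcl12. In contrast, Trex1-/- replicate 1 was the lowest library of the series for 5 members. The interferon genes of a list of 18 summed to 5551 CPM in Trex1-/- replicate 2, against 1399 and 2010 CPM in its sisters, and the 16 NF-kB genes to 1448 CPM against 700 to 1024 CPM in the other 10 libraries.

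**Figure D2:**
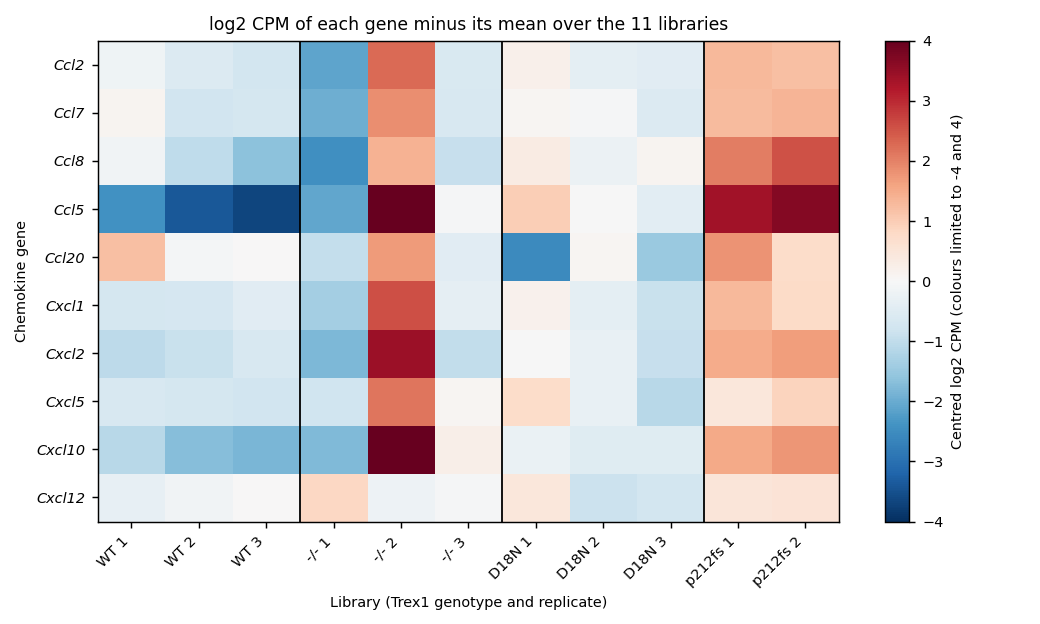
Heat map of log2 CPM (with 0.5 added) of each chemokine gene minus its own mean over the 11 libraries; columns are libraries by genotype and replicate, rows are genes, and colours stop at -4 and 4. Trex1-/- replicate 2 and both Trex1p212fs libraries are high in most rows, WT and Trex1-/- replicate 1 are low in most, and Cxcl12 varies least.

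Trex1p212fs cells were compared with WT to ask which chemokines differ in the genotype with a frameshift label. Ccl5 and Ccl8 rose, and all 10 members had a positive log2 fold change. Ccl5 rose by 6.85 ± 1.60 on the log2 scale (SE; adjusted p = 0.0212), and Ccl8 by 3.41 ± 1.02 (adjusted p = 0.0479). The 2 called of 10, both higher, are to be read against 8.13% of all genes tested that were called higher in this comparison. Libraries of the 2 genotypes did not overlap, with Trex1p212fs higher, for 9 of 10 members, against 26.4% of all genes. The median log2 fold change was 1.73 over the members and -0.02 over all genes tested. In the same Trex1p212fs libraries the sums of the fibroblast and macrophage markers were below those of every WT library, and the part of either in the chemokine values was not tested.

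The remaining members did not pass the threshold in edgeR with all libraries in the fit. Cxcl10 had a log2 difference of 3.17 ± 1.23 (adjusted p = 0.107; 95% interval 0.77 to 5.58), Cxcl2 one of 2.62 ± 1.26 (adjusted p = 0.18), and Ccl2 and Ccl7 had 1.72 ± 0.92 and 1.73 ± 0.83. Cxcl1, Cxcl5 and Cxcl12 differed by 1.68 ± 0.90, 1.39 ± 0.74 and 0.66 ± 0.39, and Ccl20 by 0.92 ± 1.01. On the same libraries DESeq2 called Ccl8 and Cxcl10 higher (Cxcl10 at adjusted p = 0.0473) and gave Ccl5 no adjusted p. The limma-voom fit called Ccl5 and Ccl8 higher. In either direction DESeq2 called 3746 and limma-voom 2698 of the 16990 genes. Trex1-/- replicate 2 enters these tests through the shared estimate of the spread, although it belongs to neither group. Since it was singled out by its values for these same members, a smaller spread of them without it follows from that choice. Without it, 8 members passed, all higher, beside 10.4% of all genes called higher in that fit, genes not used in that choice. They were Ccl2, Ccl5, Ccl7, Ccl8, Cxcl1, Cxcl2, Cxcl5 and Cxcl10, with adjusted p from 0.000259 (Ccl5) to 0.0397 (Cxcl5). Fitted on the 5 libraries of the 2 genotypes alone, these 8 and Cxcl12 (adjusted p = 0.0253) rose, against 10.2% of all genes. The fold changes themselves moved little without Trex1-/- replicate 2, as for Cxcl2, from 2.62 ± 1.26 to 2.62 ± 0.32.

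The calls of Ccl5 and Ccl8 depended on which library was left out. Both stayed without Trex1D18N replicate 1 and without Trex1-/- replicate 1, 2 or 3. Without either Trex1p212fs library no member passed, and the adjusted p of Ccl5 was 0.0905 without replicate 1 and 0.0936 without replicate 2. None passed without WT replicate 2 or without WT replicate 3 either, with an adjusted p for Ccl8 of 0.136 in both cases, and without WT replicate 1, Trex1D18N replicate 2 or Trex1D18N replicate 3 Ccl5 alone passed. In these 3 fits 11.1%, 7.14% and 7.37% of all genes were called higher. Cxcl10 passed as well without Trex1-/- replicate 1, against 9.7% of all genes.

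**Figure D3:**
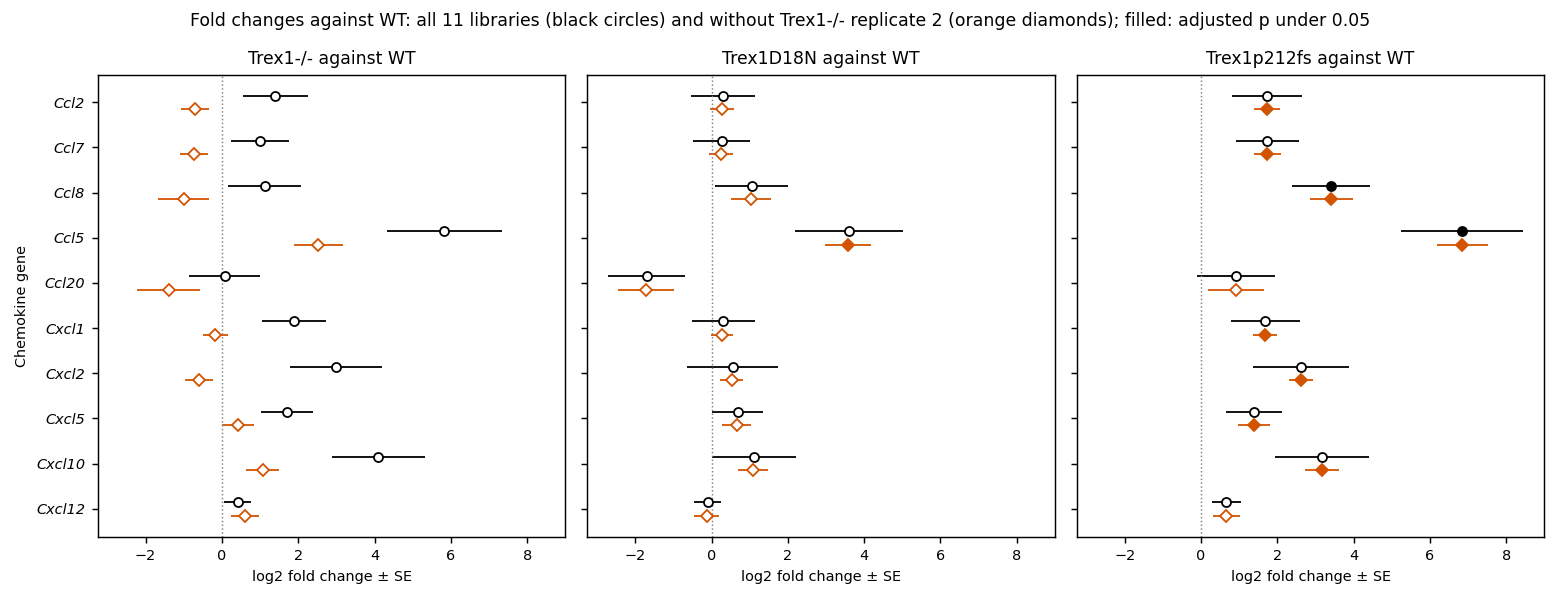
Log2 fold change of each chemokine gene against WT in the 3 mutant genotypes, with standard errors; black circles are from all 11 libraries, orange diamonds from 10 libraries without Trex1-/- replicate 2, and filled symbols have an adjusted p under 0.05. In Trex1p212fs the points barely move and the errors shrink, so that 8 members pass in place of 2, while in Trex1-/- the points of all members but Cxcl12 move towards or below 0.

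The comparison of Trex1-/- with WT asks what loss of the exonuclease does to these genes. No member passed with edgeR's quasi-likelihood test, nor did any of the 16990 genes (0% called). At an unadjusted p under 0.05 there were 4 members (Ccl5, Cxcl2, Cxcl5 and Cxcl10), against 22.7% of all genes. DESeq2, which gave Ccl5 and Cxcl2 no adjusted p, called 1 (Cxcl10), against 3.2% of all genes called higher by it, and limma-voom 0. Ccl5 had a log2 difference of 5.83 ± 1.5 (adjusted p = 0.129), and its groups did not overlap, as for 11.2% of all genes, with Trex1-/- higher. Cxcl10 had 4.10 ± 1.22 (adjusted p = 0.137), Cxcl2 2.99 ± 1.20 and Cxcl5 1.71 ± 0.69 (both adjusted p = 0.188), and Cxcl1 1.88 ± 0.84 (adjusted p = 0.222). Ccl2, Ccl8, Ccl7, Cxcl12 and Ccl20 had 1.40 ± 0.84, 1.12 ± 0.95, 0.99 ± 0.75, 0.42 ± 0.35 and 0.07 ± 0.93.

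These values came mostly from 1 library. Without Trex1-/- replicate 2 the median over the members went from 1.56 to -0.39, 4 of 10 were positive and none passed, against 0.142% of all genes called higher and 0.0118% called lower. Ccl5 then had 2.53 ± 0.64 (adjusted p = 0.158), Cxcl10 1.07 ± 0.43 (adjusted p = 0.203), Cxcl12 0.60 ± 0.36 and Cxcl5 0.42 ± 0.42. Ccl2, Ccl7, Ccl8, Ccl20, Cxcl1 and Cxcl2 turned negative, between -0.17 (Cxcl1) and -1.40 (Ccl20). Leaving out Trex1-/- replicate 1 instead, Ccl5 and Cxcl10 passed, against 0.586% of all genes called higher. That replicate 2 is also the one Trex1-/- library with the female pattern. With the sex pattern as a term 5 members were called higher, at a median of 2.31, a count without a share of all genes here. Within Trex1-/- the female pattern cannot be told apart from anything else particular to replicate 2.

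Trex1D18N cells, compared with WT, had no member past the threshold, against 12.2% of all genes called higher and 13.2% called lower. Ccl5 was nearest, with a log2 difference of 3.59 ± 1.41 (adjusted p = 0.0901; 95% interval 0.83 to 6.36), and its Trex1D18N libraries were all above WT. Cxcl10 libraries did not overlap either, at 1.11 ± 1.09 (adjusted p = 0.478), a separation that 23.1% of all genes showed in the same direction. Ccl8 had 1.05 ± 0.96, Cxcl5 0.68 ± 0.67 and Cxcl2 0.55 ± 1.20. Intervals for Ccl2 (-1.33 to 1.93), Ccl7 (-1.20 to 1.73) and Cxcl1 (-1.31 to 1.93) span 0 and are wide, so that no difference was detectable but a change of more than 1 unit in either direction is within them. Ccl20 was at -1.70 ± 1.00 and Cxcl12 at -0.10 ± 0.35. The members' median was 0.43, against 0.04 over all genes. At an unadjusted p under 0.05 there was 1 member, Ccl5, against 40.4% of all genes. Neither limma-voom nor DESeq2 called any, but DESeq2 gave Ccl5 and Cxcl2 no adjusted p and so could not call them. Without Trex1-/- replicate 2, Ccl5 rose by 3.57 ± 0.60 (adjusted p = 0.00298), against 13.9% of all genes called higher, and it also passed without Trex1-/- replicate 1, against 13.1%. Macrophage markers were lowest in this genotype, with 18 of 19 tested lower than in WT, and 14 of 14 skeletal muscle markers tested rose, from a sum of 10.8 to 15 CPM in WT to 947 to 2357 CPM. The part of either in the chemokine values was not tested.

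Between the mutant genotypes no member passed in edgeR with all libraries. DESeq2 gave Ccl5 and Cxcl2 no adjusted p in these comparisons either, so its counts do not cover them. In the comparisons with Trex1-/- the fold changes depended on its replicate 2. In Trex1p212fs against Trex1D18N the calls depended on it, while the median was 1.76 with it and 1.79 without it. Trex1p212fs against Trex1D18N had a positive difference for all 10 members, with no overlap for 9 of 10 (Cxcl5 overlapped), against 34.4% of all genes without overlap and higher and 18.6% called higher. The median was 1.76. Ccl5 differed by 3.25 ± 1.33 (adjusted p = 0.0818), Ccl20 by 2.61 ± 1.07 (adjusted p = 0.079) and Ccl8 by 2.37 ± 0.97 (adjusted p = 0.0805). Without Trex1-/- replicate 2, which is in neither group, 8 members passed, against 21.4% of all genes, the exceptions being Cxcl5 and Cxcl12. With all libraries, 3 members had an unadjusted p under 0.05, against 48.5% of all genes, DESeq2 called 0 and limma-voom 2, against 18.9% of all genes called higher by limma-voom. On leaving out Trex1-/- replicate 1, 4 members passed (Ccl5, Ccl8, Ccl20 and Cxcl10), against 21.4% of all genes. On leaving out Trex1D18N replicate 1 Cxcl12 passed, against 16.4%, and on leaving out Trex1D18N replicate 2 Ccl20 did, against 13.9%.

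Trex1p212fs against Trex1-/- had a median of 0.29 with 6 of 10 positive, against 15.4% of all genes called higher and 17.1% called lower. Ccl8 was the one member whose groups did not overlap, at 2.29 ± 0.97 (adjusted p = 0.0964), as for 30.4% of all genes in that direction. It was also the 1 member with an unadjusted p under 0.05, against 44.4% of all genes, while DESeq2 called 0 and limma-voom 1, against 16.4% of all genes called higher by limma-voom. Without Trex1-/- replicate 2 the median was 2.37, and 7 members were higher in Trex1p212fs, against 14.7% of all genes. Trex1D18N against Trex1-/- had 10 negative differences and a median of -1.34, against 3.95% of all genes called higher and 2.85% called lower, and a median of 0.72 without that library, with none passing in either fit. In that second fit 4.17% of all genes were called higher and 3.2% lower. With all libraries 1 member, Cxcl10, had an unadjusted p under 0.05, against 23.7% of all genes, and DESeq2 and limma-voom called 0. Cxcl10 was called lower without Trex1-/- replicate 1, against 6.52% of all genes, and Cxcl12 without Trex1D18N replicate 1, against 2.43%. These comparisons share libraries with those against WT.

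Of 16 other CC chemokine genes, 10 could be tested. In Trex1D18N, Ccl12, Ccl9 and Ccl4 fell and Ccl25 rose, 4 of 10 beside 25.3% of all genes called in either direction. The counts were 1 higher and 4 lower without Trex1-/- replicate 2, beside 13.9% of all genes called higher in that fit. Ccl9, whose product attracts myeloid cells in mice, was at 18.4, 20.4 and 16.9 CPM in WT and at 7.39, 3.64 and 4.77 CPM in Trex1D18N, a log2 change of -1.82 ± 0.34 (adjusted p = 0.00554). Ccl12, another CCR2 ligand of mice, had 1.73, 1.22 and 1.96 CPM in WT and 0.341, 0.171 and 0.114 CPM in Trex1D18N (-2.94 ± 0.46, adjusted p = 0.00223). These 2 calls held whichever library was left out, whereas those of Ccl4 and Ccl25 did not. Macrophages also express these genes, and the macrophage sums given above are lower in the same libraries, a link that was not tested. In Trex1p212fs, Ccl6 alone passed, at 25.9 and 34.3 CPM against 10.2, 6.97 and 7.5 CPM in WT (1.87 ± 0.26, adjusted p = 0.00141), and it held without each library in turn. In the same genotype 2 genes of this list rose without Trex1-/- replicate 2, beside 10.4% of all genes.

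Of 12 other CXC, CX3C and C chemokine genes, 9 could be tested. Cx3cl1, a membrane-anchored chemokine, and Cxcl14, made by fibroblasts and epithelia, fell in Trex1D18N, 2 of 9 beside the same share of all genes. Cx3cl1 was at 23.0, 19.1 and 30.3 CPM in WT and 9.15, 11.5 and 11.1 CPM in Trex1D18N (-1.19 ± 0.24, adjusted p = 0.00673). Cxcl14 was at 53.5, 121 and 113 CPM in WT and 17.8, 34.3 and 10.1 CPM in Trex1D18N (-2.21 ± 0.52, adjusted p = 0.0159). Both calls held without each library. With the sex pattern as a term in edgeR, that of Cx3cl1 was lost (adjusted p = 0.0514) and that of Cxcl14 stayed (adjusted p = 0.0412). Cxcl9, like Cxcl10 an interferon-inducible ligand of CXCR3, was at 5.71, 1.77 and 1.20 CPM in WT, 1.39, 146 and 7.93 CPM in Trex1-/-, 35, 23.2 and 22.5 CPM in Trex1D18N, and 2.62 and 5.14 CPM in Trex1p212fs. All Trex1D18N libraries were above WT and both Trex1p212fs libraries were within the WT range, but neither difference from WT passed (adjusted p = 0.121 and 0.875). Ppbp and Pf4 rose in Trex1p212fs, calls lost without either Trex1p212fs library and, for Pf4, without WT replicate 2. The list had 2 higher and 2 lower in Trex1D18N and 3 higher in Trex1p212fs without Trex1-/- replicate 2. In that fit 13.9% and 10.4% of all genes were called higher in these genotypes.

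Receptor genes were scarce. Of 18 signalling chemokine receptors 5 could be tested, and their sum was 2.62 to 12.8 CPM in a library. Cx3cr1, which is also on the macrophage list, fell in Trex1D18N (adjusted p = 0.00751) and Trex1p212fs (adjusted p = 0.0332), and 0 rose. The second call was lost without WT replicate 2 or 3 or either Trex1p212fs library (adjusted p up to 0.209), and limma-voom did not make it. In both of these genotypes 2 receptors were lower without Trex1-/- replicate 2, a count without a share of all genes here. With all libraries, 25.3% of all genes were called in either direction in Trex1D18N and 17.1% in Trex1p212fs. Of 5 atypical receptors, which take up chemokines without signalling through G proteins, 4 were tested. Ackr3, which scavenges CXCL12, rose in Trex1p212fs, with 75.5 and 81.6 CPM against 22, 28.6 and 30.4 CPM in WT (1.54 ± 0.30, adjusted p = 0.00774), a call lost without either Trex1p212fs library. In Trex1-/- it was at 42.7, 80.8 and 45.3 CPM, all above WT (1.06 ± 0.27, adjusted p = 0.127), and in Trex1D18N at 36.5, 23.7 and 19.9 CPM. Of the atypical receptors, 2 rose in Trex1p212fs and 1 in Trex1D18N without Trex1-/- replicate 2, beside 10.4% and 13.9% of all genes.

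In lists of interferon signalling and targets, cytokines, NF-kB subunits and feedback, and chemokine mRNA decay and processing, edgeR called 0 in Trex1-/- against WT. There, 13 of 17 interferon genes tested, 9 of 20 cytokine genes and 6 of 16 NF-kB genes had an unadjusted p under 0.05, DESeq2 called 9, 3 and 0 of them higher, and limma-voom called 0 in each list. Over all genes, 22.7% had an unadjusted p under 0.05 in edgeR, and DESeq2 called 3.2% higher. The edgeR counts of higher genes reached 7 interferon genes without Trex1-/- replicate 1, against 0.586% of all genes. They reached 2 cytokine genes and 1 NF-kB gene without WT replicate 2. Without Trex1-/- replicate 2 the count was 1 interferon gene, against 0.142% of all genes. Of 16 NF-kB subunits and feedback genes, 2 rose in Trex1D18N (Ikbke and Ikbkb) and 2 in Trex1p212fs (Nfkbiz and Ikbke), calls that were each lost on leaving out either Trex1p212fs library, among others, with medians of 0.18 and 0.13 over the list. These counts became 5 higher and 1 lower in Trex1D18N and 3 higher in Trex1p212fs without Trex1-/- replicate 2. Of 17 interferon genes tested, Stat2, a subunit of the interferon-activated factor, rose in Trex1D18N by 1.26 ± 0.28 (adjusted p = 0.0107) and Irf3 fell, while Ifit1, an interferon-induced antiviral gene, rose in Trex1p212fs. Ifit1 was at 82.8, 45.5 and 43.5 CPM in WT and 338 and 352 CPM in Trex1p212fs (2.59 ± 0.62, adjusted p = 0.0214), a call lost without either Trex1p212fs library or without WT replicate 2 or 3. Without Trex1-/- replicate 2, 7 interferon genes rose and 1 fell in each of these 2 genotypes. Of 20 cytokine genes and receptors tested, Il1r1 rose and Il1rn fell in Trex1D18N, and Il1rn rose and Il33 fell in Trex1p212fs. Of these 4 calls, that of Il1r1 held without each library in turn. With Trex1-/- replicate 2 left out, the counts were 3 higher and 2 lower in Trex1D18N and 6 higher and 1 lower in Trex1p212fs. Of 10 genes of chemokine mRNA decay and protein processing, 3 rose and 2 fell in Trex1D18N, and 2 rose and 2 fell in Trex1p212fs, the latter becoming 4 and 2 without Trex1-/- replicate 2. Zfp36l1, which destabilizes AU-rich mRNAs, rose in both, by 0.83 ± 0.17 (adjusted p = 0.00662) and 0.75 ± 0.18 (adjusted p = 0.0174), the second call being lost without either Trex1p212fs library. Over all genes tested, 25.3% were called in Trex1D18N and 17.1% in Trex1p212fs, in either direction with all libraries. Without Trex1-/- replicate 2, 13.9% and 10.4% were called higher, and the shares called lower are not given here.

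**Figure D4:**
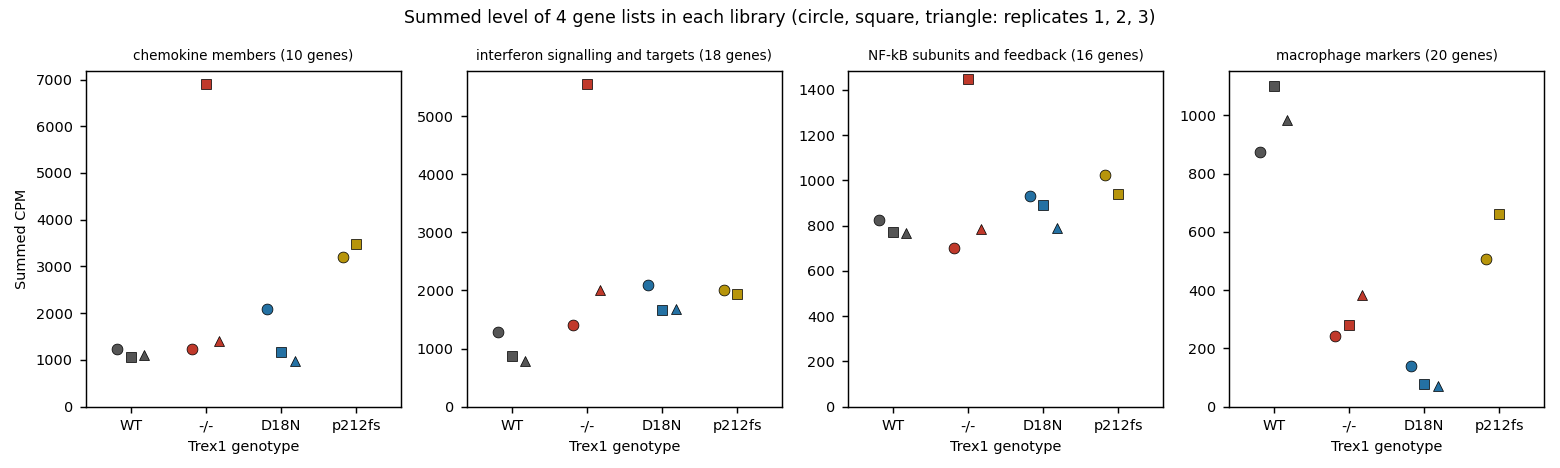
Summed CPM of 4 gene lists in each of the 11 libraries by Trex1 genotype; circles, squares and triangles are replicates 1, 2 and 3. The chemokine and interferon sums of Trex1-/- replicate 2, 6894 and 5551 CPM, are the highest, while the macrophage sum is highest in WT.

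Marker genes of other cell types gave these counts against WT. They stand beside 12.2% of all genes called higher and 13.2% lower in Trex1D18N, and 17.1% called in either direction in Trex1p212fs. Of 19 macrophage markers tested, 18 fell in Trex1D18N, and 16 to 19 on leaving out 1 library. In Trex1p212fs 5 fell, with 8 without Trex1-/- replicate 2, 0 without Trex1p212fs replicate 1 and 9 with DESeq2. Of 12 fibroblast markers, 3 rose and 3 fell in Trex1D18N and 6 fell in Trex1p212fs, among them Col1a2, Thy1 and Col1a1, and 2 without Trex1p212fs replicate 1. Of 8 endothelial markers tested, 2 rose and 1 fell in Trex1D18N and 1 fell in Trex1p212fs. Of 9 epithelial markers tested, 2 rose and 1 fell in each of these genotypes. Of 14 muscle markers tested, 14 rose in Trex1D18N and 2 in Trex1p212fs, and of 2 neutrophil and mast cell markers tested none passed. On leaving out 1 library, the endothelial, epithelial and muscle counts in Trex1p212fs each went down to 0 in some fit. In Trex1D18N the lowest counts were 0 higher and 0 lower for endothelial, 1 and 1 for epithelial, and 13 higher for muscle markers. In Trex1-/- edgeR called 0 markers of any list. At an unadjusted p under 0.05 there were 15 macrophage, 4 fibroblast, 2 epithelial and 1 muscle marker, DESeq2 called 10 macrophage and 2 fibroblast markers lower and 1 muscle marker higher, and limma-voom called 1 macrophage marker lower. Over all genes, 22.7% had an unadjusted p under 0.05 in edgeR. DESeq2 called 846 of the 16990 genes in either direction, and limma-voom 1. In Trex1-/-, 2 macrophage markers were lower without Trex1-/- replicate 2, against 0.0118% of all genes, and 6 without WT replicate 2. The other marker counts against WT changed by at most 1 without Trex1-/- replicate 2.

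Likeness between expression patterns was measured as the root mean square difference of log2 CPM over the 11 libraries, after each gene was centred on its own mean. Ccl2 and Ccl7 were the closest pair of members, at 0.21, with deviations of 1.14 and 1.07 around their own means. Cxcl1 was next to Ccl2 (0.36), and Ccl7 was followed by Sod3, an extracellular superoxide dismutase (0.30). The genes nearest to Cxcl2 were Il1b (0.38), Il1a (0.42) and Il6 (0.45), all inflammatory cytokines. Il6 was at 121 CPM in Trex1-/- replicate 2 and at most at 33.5 CPM elsewhere. Cxcl10 was nearest to Il6 (0.56), the interferon-induced gene Oasl1 (0.57) and Cxcl2 (0.62). Ccl5, with the widest variation of the members (2.65), was nearest to Nos2, the inducible nitric oxide synthase (0.99), and then to Cxcl10 (1.24). Nos2 was at 158 CPM in Trex1-/- replicate 2, 28.7 and 38.0 CPM in Trex1p212fs, and at most at 4.10 CPM in the other libraries. Cxcl5 was nearest to the pattern receptor gene Tlr2 (0.29), Ccl8 to haptoglobin, Hp (0.57), and Ccl20 to Tnip3 (0.66). Cxcl12 had the smallest variation (0.51), and its 3 nearest genes, Lrrn4cl, Cnnm2 and Tmem117, were no chemokines. These distances rest largely on Trex1-/- replicate 2 and the Trex1p212fs libraries, in which the members are high.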

How the data were processed

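RNA-seq counts of 11 MEF libraries were analysed. Per the labels' protocols, RNA came from an RNeasy kit and libraries from a SMARTER mRNA-seq kit. The deposited values are raw counts of reads per gene, not normalized by the authors. The submitters' processing notes name the build GRCm39 and the tools featureCounts, HISAT2 and fastp, while the sources used here do not give versions, settings, annotation or strand setting. Reads from overlapping or antisense genes therefore cannot be told apart.

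From the counts, edgeR 4.0.16 (R 4.3.3) was fitted with the robust quasi-likelihood test after filterByExpr (minimum count 10) and TMM scaling. All 11 libraries entered 1 fit with genotype as its term, because the 2 Trex1p212fs libraries alone estimate the spread poorly, and 6 comparisons were drawn. P-values were adjusted by Benjamini-Hochberg over the 16990 genes tested, with a threshold of 0.05. Errors are approximate standard errors (log2 fold change divided by the root of the F statistic). CPM are counts scaled to the TMM-adjusted library size, and 0.5 was added before taking log2 for patterns. The 1654 lines without a gene name, 0.0804% to 0.129% of a library's counts, were left out. Library totals of 16073955 to 21765536 counts leave counting error largest for Ccl8 and Ccl20, and for Ccl5 and Cxcl2 where they are low (lowest counts 26 and 29). Replicate pairs all differed by more than sampling noise (chi-square per degree of freedom 7.90 to 128).

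Alternatives were DESeq2 1.42.0, limma-voom (limma 3.58.1), DESeq2 size factors, no filter, the 2 genotypes alone, the replicate number as a block, the sex pattern as a term, and leaving out each library. Each tool was also run on counts simulated with the same dispersion for every gene and no deviating library. That run does not show how the tools treat a library such as Trex1-/- replicate 2. Positions and exon lengths came from GENCODE M21 (GRCm38), not the submitters' build, and promoters from RefSeq (GRCm38.p6). Named are the members, for each list up to 3 called genes of smallest p (or the 2 most abundant where none passed), and the 3 genes most like each member. Nfkbiz, Ikbke and the other genes named follow that rule, except Ccl25 and Art3, chosen after their values were seen. Members, lists and tests were chosen with earlier results of these data known.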

Additional observations from a re-analysis of the deposited data

How the results depend on the processing

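With all 11 libraries 2 members passed in Trex1p212fs against WT and 0 in the other 5 comparisons, and these counts depended on the spread set by Trex1-/- replicate 2. In Trex1p212fs against WT the count was 2 with DESeq2 (Ccl8 and Cxcl10) and 2 with limma-voom (Ccl5 and Ccl8). It was 0 with no filter, 9 with the 2 genotypes alone, 8 with the sex pattern as a term and 0 to 8 on leaving out 1 library. In Trex1-/- against WT it was 1 with DESeq2, 5 with the sex term and 0 to 2 on leaving out 1 library. In Trex1D18N against WT it was 2 with the 2 genotypes alone, 2 with the sex term and 0 to 1 on leaving out 1 library. In Trex1D18N against Trex1-/- it was 0 to 1. In Trex1p212fs against Trex1-/- it was 1 with limma-voom, 3 with the sex term and 0 to 7, and in Trex1p212fs against Trex1D18N it was 2 with limma-voom, 7 with the 2 genotypes alone, 8 with the sex term and 0 to 8. The sex term is estimated within Trex1-/- and Trex1D18N, where 1 library each has the female pattern, and under it the log2 difference of Ccl5 in Trex1p212fs against WT was 10.2 in place of 6.85. With the replicate number as a block the count in Trex1p212fs against WT was 1 (Ccl5). Shares of all genes called under the sex term and the block are not given here. The same holds for the 2 genotypes alone outside Trex1p212fs against WT. These counts therefore show only that the calls vary with the setting, and are no result about the members. Whether the numbers pair the libraries was not settled. Over 15 same-number pairs the correlation of deviations was -0.26 to 0.18, and 6 of 11 libraries correlated best with their own number. Deviations were taken from the means of small groups, so those within a group are not independent and the check cannot exclude pairing.

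Signs turned in these cases, and the cause was not tested. A value of the turned sign passed the threshold for Cxcl1, Cxcl2 and Cxcl10 in Trex1p212fs against Trex1-/- without Trex1-/- replicate 2, and for no other. In Trex1-/- against WT, Ccl8 was at -0.039 with limma-voom, and Ccl20 at -0.42 with limma-voom and -0.33 with the block. On leaving out 1 library the range was -0.70 to 1.93 for Ccl2, -0.75 to 1.5 for Ccl7, -1.01 to 1.79 for Ccl8, -1.40 to 0.68 for Ccl20, -0.17 to 2.39 for Cxcl1 and -0.60 to 3.55 for Cxcl2. In Trex1D18N against WT, Cxcl12 was at 0.095 with the sex term and at -0.65 to 0.12 on leaving out 1 library, and Cxcl1 at -0.015 to 0.53. In Trex1D18N against Trex1-/-, Ccl7 was at 0.084 with limma-voom and 0.053 with the sex term, and Ccl8 at 1.28 with limma-voom, 0.37 with the block and 0.72 with the sex term. Its ranges were -1.65 to 0.98 for Ccl2, -1.25 to 0.99 for Ccl7, -0.67 to 2.03 for Ccl8, -2.83 to 1.04 for Ccl5, -2.11 to 0.45 for Cxcl1, -3.02 to 1.13 for Cxcl2, -1.67 to 0.23 for Cxcl5 and -3.58 to 0.011 for Cxcl10. In Trex1p212fs against Trex1-/-, limma-voom gave 0.76 for Cxcl1, 1.63 for Cxcl2, 0.18 for Cxcl5 and 0.81 for Cxcl10, the sex term 1.38, 2.29, 0.79 and 1.37, and the block 0.016 for Cxcl1 and 0.23 for Cxcl2. Its ranges were -0.20 to 2.43 for Ccl2, -0.71 to 1.85 for Cxcl1, -0.93 to 3.22 for Cxcl2, -0.76 to 0.97 for Cxcl5 and -1.48 to 2.10 for Cxcl10. In Trex1p212fs against WT no member changed sign under any alternative run. DESeq2 gave Ccl5 and Cxcl2 no adjusted p in any comparison, so its counts do not cover them. Depth limits Ccl8 and Ccl20 most, whose counts went down to 6 and 3.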
